A study of Mus musculus with 20 samples.

Results

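The 9 genes described here encode receptors with which blood stem cells find, hold and leave the bone marrow: Cxcr4, Itga4, Itga6, Itgb1, Itgb2, Itgal, Selplg, Cd44 and Robo4. They were taken as a named set from 55573 genes in the count files, by matching the files' Ensembl identifiers to symbols in GENCODE M21, and all 9 passed the filter on low counts. Bone marrow came from C57BL/6 mice aged 7 to 9 weeks, 2 mice to a sample. Cells negative for lineage antigens and positive for Sca-1 and c-Kit were sorted as haematopoietic stem cells (HSC, CD150+CD48-) or multipotent progenitors (MPP, CD150-CD48-), each with (Lepr+) or without (Lepr-) leptin receptor protein on the surface. Each of the 4 groups had 5 libraries of 1000 to 8000 cells, and no group carried a transgene or treatment in the labels. The comparisons ask whether cells with and without the receptor for leptin, the hormone of fat stores, differ in these genes, and whether HSC and MPP do.

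Homing of blood stem cells is commonly described in steps. Selectins on marrow vessels catch cells by sugars carried on PSGL-1 and CD44. The chemokine CXCL12, acting on CXCR4, then switches integrins to a state that grips VCAM-1, ICAM-1 and laminin on vessel wall and matrix. ROBO4 is a roundabout receptor best known from blood vessels, and in stem cells it has been linked to their seat beside marrow vessels together with CXCR4.

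Libraries held 9532993 to 31589794 counts in genes, and the 9 genes together took 0.0563% to 0.159% of them. Values below are normalised read counts (CPM, each count relative to the size of its library, scaled by TMM factors), given for replicates 1 to 5 in that order, and means carry the SD over 5 libraries. Slamf1, the gene of CD150, had 19.6 to 66.6 CPM in the 10 HSC libraries and 0 to 10.01 CPM in the 10 MPP libraries. The design text gives 2 mice for each replicate, and libraries with the same number were taken as pairs on that reading. Deviations from group means correlated within numbers at medians of 0.100 to 0.411 for replicates 1, 3, 4 and 5 and at 0.0084 for replicate 2. Lepr+ MPP replicates 4 and 5 and Lepr+ HSC replicate 5 were least like the rest of their groups. Replicates 1 and 3 had 21560529 to 31589794 counts and replicates 4 and 5 had 9532993 to 15052009. In bulk samples, fewer cells with a transcript and less transcript per cell cannot be told apart.

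Selplg was the member that passed the test, and it was lower in HSC than in MPP among Lepr- cells. Robo4 had the widest gap between Lepr+ and Lepr- HSC, with every Lepr+ HSC library above every Lepr- HSC library, but the call depended on the model. Itgal was near 10 CPM in both HSC groups and several times higher in Lepr- MPP, with single libraries near 0. Levels of Cxcr4, Itga4, Itga6 and Itgb1 overlapped between the groups in each of the 4 comparisons, and so did those of Itgb2 and Cd44.

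**Figure D1:**
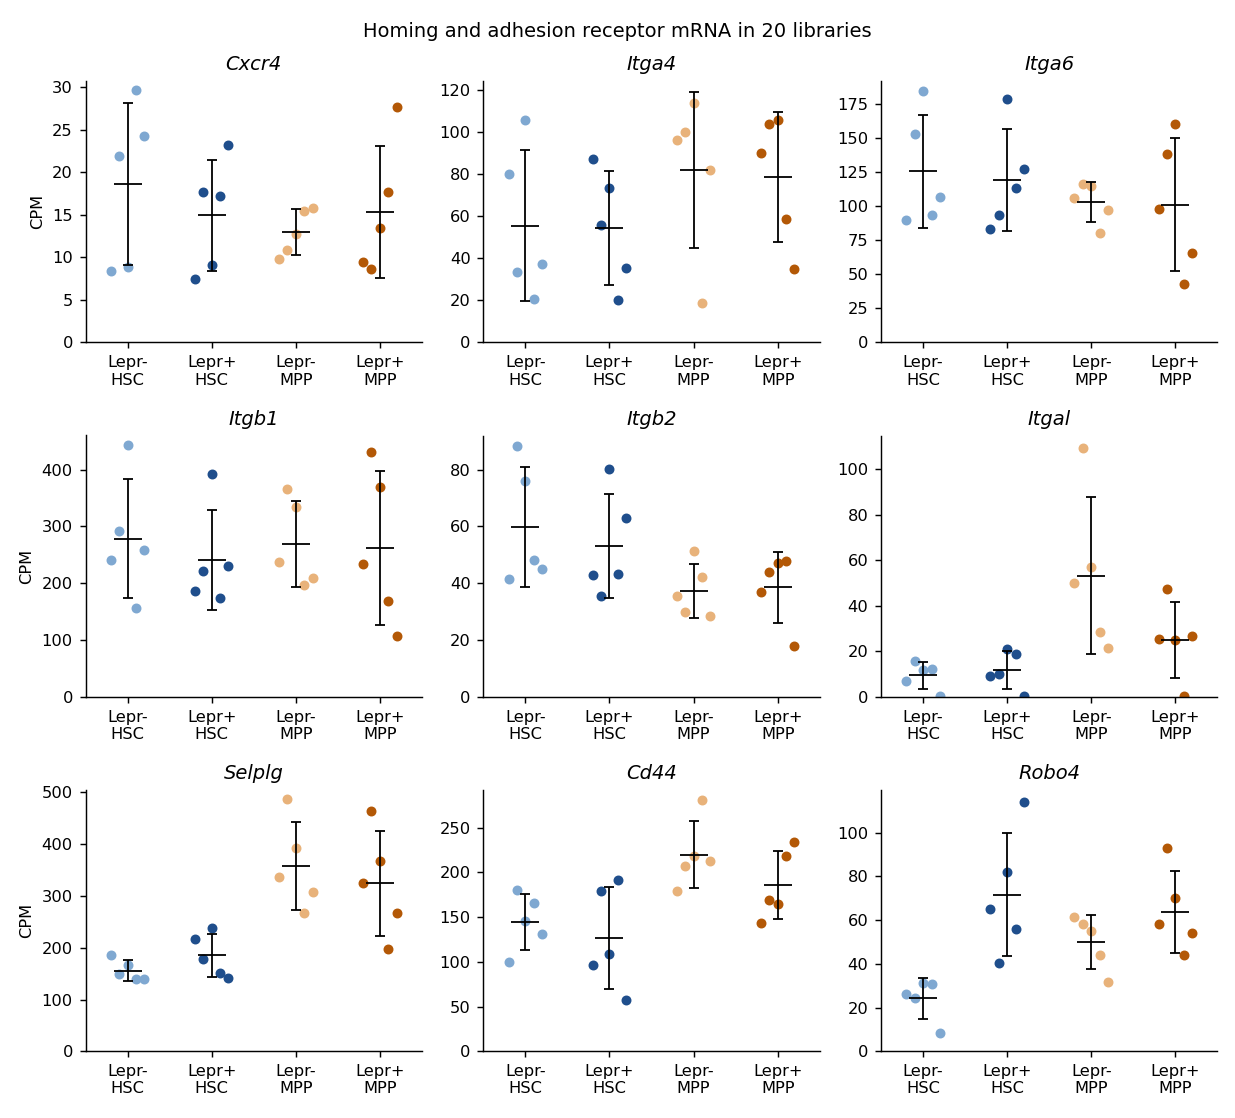
CPM of the 9 genes (linear axes from 0) in 20 libraries, 1 point per library in replicate order 1 to 5 from left to right within a group. Horizontal bars are means and error bars SD over 5 libraries. Robo4 in Lepr+ HSC lies between 40.6 and 114.2 CPM, above all Lepr- HSC libraries, and Selplg in both HSC groups lies under 238 CPM.

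Of the 9 members, edgeR's quasi-likelihood test over 16509 genes called 0 between Lepr+ and Lepr- HSC, where 17 genes (0.103%) were called in all, and 1 member had an unadjusted p under 0.05. DESeq2 called 1 member there (Robo4), against 1.11% of the genes it tested, and edgeR with the replicate number as a block also called 1, against 1.02%. Between Lepr+ and Lepr- MPP 0 members were called, with a background of 0.2%, and 0 had an unadjusted p under 0.05. DESeq2 called 0 members there as well. DESeq2 tested more genes and called 1.26% of them in that comparison, and the block 0.103%. Between Lepr- HSC and Lepr- MPP 1 member was called, Selplg, against 2.73% of genes. The block called the same 1 member, against 7.5% of genes, and DESeq2 called 2 (Selplg and Robo4), against 4.98%. Between Lepr+ HSC and Lepr+ MPP 0 were called, against 0.466% of genes, 2 had an unadjusted p under 0.05, and DESeq2 and the block each called 1 (Selplg) against 2.1% and 1.77%. The 4 comparisons share groups pairwise and are not independent. The difference of the 2 Lepr differences, HSC minus MPP, called 0 members and 0 genes with edgeR (0%), while DESeq2 called 0 members and 31 genes (0.161%), and 1 member had an unadjusted p under 0.05 with edgeR.

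**Figure D2:**
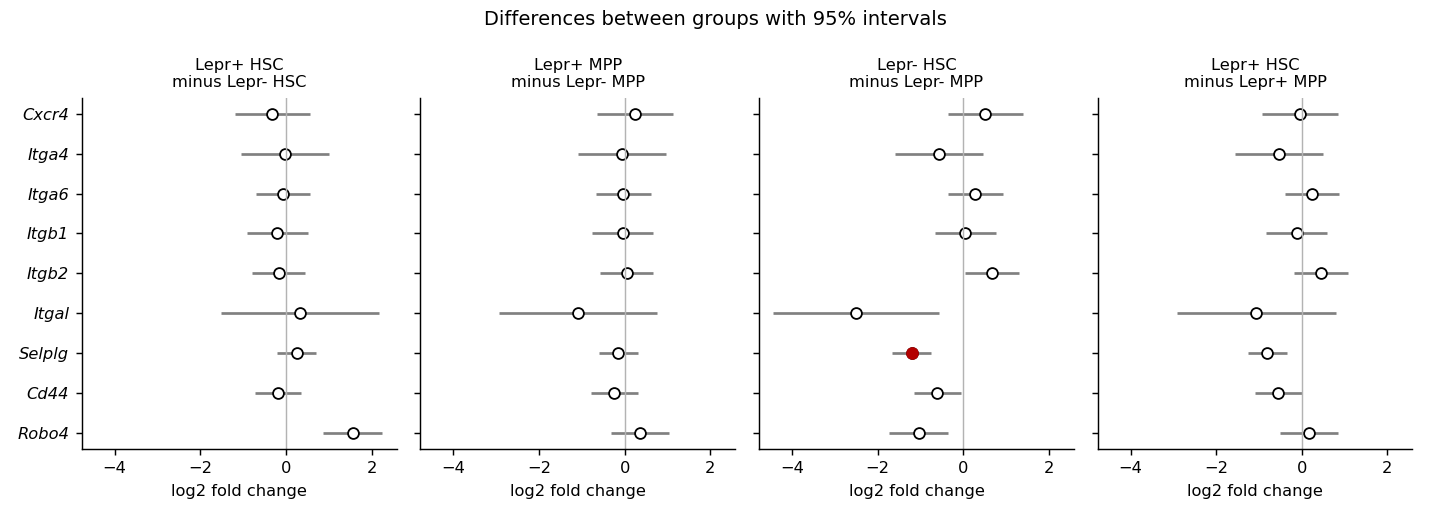
Log2 fold changes from edgeR of the 9 genes in 4 comparisons, with unadjusted 95% intervals as horizontal lines. The filled point is Selplg between Lepr- HSC and Lepr- MPP (-1.20), which passed at an adjusted p under 0.05, and open points did not pass.

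Cxcr4 (ENSMUSG00000045382.6) encodes the receptor of CXCL12 that keeps stem cells in the marrow, and lies on chromosome 1 of GRCm38 from 128588199 to 128592293. It had 8.41, 21.9, 8.88, 29.6 and 24.3 CPM across Lepr- HSC, and 7.52, 17.7, 9.17, 17.2 and 23.2 CPM across Lepr+ HSC. In Lepr- MPP it had 9.84, 10.9, 12.7, 15.5 and 15.9 CPM, and in Lepr+ MPP 9.43, 8.62, 13.5, 17.7 and 27.7 CPM. The groups overlapped throughout. Group means ran from 12.97 to 18.6 CPM, and means by replicate number from 8.80 to 22.8 CPM. Replicate 1 ran from 7.52 to 9.84 CPM and replicate 3 from 8.88 to 13.5 CPM over the 4 groups, while replicates 4 and 5 ran from 15.5 to 29.6 and from 15.9 to 27.7 CPM. Replicate 2 was split by cell type, with 21.9 and 17.7 CPM in HSC and 10.9 and 8.62 CPM in MPP.

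The replicates with low Cxcr4 were the most deeply sequenced and those with high Cxcr4 the least deeply sequenced, and the part of depth in this was not tested. The Lepr+ minus Lepr- difference in HSC was -0.32 ± 0.42 on the log2 scale (SE, adjusted p = 1.00), and Lepr- HSC minus Lepr- MPP gave 0.52 ± 0.42 (adjusted p = 0.743). The 95% interval of the first ran from -1.20 to 0.57, which leaves room for a change of either sign. Cxcl12, the ligand, is made by marrow stroma. Its mean was 1.80 ± 3.56 CPM without and 30.8 ± 27.5 CPM with the leptin receptor in HSC, and 1.15 ± 1.12 and 330.9 ± 212.1 CPM in MPP. In Lepr+ HSC it ran from 0.304 to 64.5 CPM, and the Lepr difference in HSC did not pass (edgeR adjusted p = 0.333).

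Of 20 tested genes of CXCR4 signalling and its control (22 listed), edgeR called 2 as lower and 0 as higher in Lepr- HSC than in Lepr- MPP. They were Rgs2 and Rgs19, both from the RGS family that shortens signals of G proteins. Rgs2 averaged 15.7 ± 3.04 CPM among these HSC and 52.5 ± 11.8 CPM among these MPP (log2 -1.74, edgeR adjusted p = 0.000145). Rgs19 had 103.4 ± 16.1 and 177.0 ± 17.3 CPM there (log2 -0.78, edgeR adjusted p = 0.00453). With the block Rgs18 was called there too, as higher in Lepr- HSC (log2 0.65, adjusted p = 0.00983). Rgs2 was also the 1 gene of the list that edgeR called as lower in Lepr+ HSC than in Lepr+ MPP (19.5 ± 3.51 and 47.01 ± 6.28 CPM, log2 -1.27, edgeR adjusted p = 0.0106). DESeq2 called Rgs19 there as well (adjusted p = 0.0379). The median of the list was 0.03 and -0.13 in these comparisons, beside 0.01 and -0.02 over all genes tested, and edgeR called 0 of its genes by Lepr status in HSC or in MPP, where DESeq2 called 1 in MPP, Mmp9, as higher in Lepr+ cells.

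Itgb1 (ENSMUSG00000025809.15, chromosome 8 from 128685654 to 128733200) encodes the beta chain shared by VLA-4 and the laminin receptor. Itga4 (ENSMUSG00000027009.18, chromosome 2 from 79255426 to 79333123) and Itga6 (ENSMUSG00000027111.15, chromosome 2 from 71745616 to 71858416) encode their alpha chains. Itgb1 had 240.6, 291.9, 443.1, 157.1 and 259.1 CPM across Lepr- HSC, and 185.6, 221.4, 392.3, 174.6 and 231.0 CPM across Lepr+ HSC. In Lepr- MPP it had 237.7, 366.1, 334.5, 196.9 and 210.1 CPM and in Lepr+ MPP 233.1, 431.2, 369.2, 169.2 and 106.4 CPM. Replicates 2 and 3 held the top values in each group except Lepr+ HSC, where replicate 5 stood above replicate 2.

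Itga4 had 80.1, 33.7, 105.9, 20.6 and 37.2 CPM across Lepr- HSC, and 87.3, 56.2, 73.4, 20.1 and 35.3 CPM across Lepr+ HSC. It had 96.2, 100.02, 114.0, 18.8 and 81.9 CPM across Lepr- MPP, and 90.2, 104.1, 106.1, 58.8 and 34.8 CPM across Lepr+ MPP. Replicate 4 was the lowest library in 3 of the groups and replicate 5 in Lepr+ MPP, and both numbers had few counts in all. Lepr- HSC minus Lepr- MPP was -0.56 ± 0.49 (edgeR adjusted p = 0.776), within the spread of the libraries. Of the exon bases of Itga4, 8.04% are shared with Cerkl on the opposite strand, where reads without strand cannot be assigned to either gene. Whether such reads were counted for Itga4 or left out is not given.

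Itga6 lay between 43.1 and 185.1 CPM over the 20 libraries, with group means from 101.3 ± 48.9 CPM in Lepr+ MPP to 125.9 ± 41.6 CPM in Lepr- HSC. Between Lepr+ and Lepr- HSC, the 95% intervals of Itga4, Itga6, Itgb1, Itgb2 and Cd44 reached from -1.05 to 1.00 at their widest (adjusted p = 1.00 for each). Between Lepr+ and Lepr- MPP those of Itga4, Itga6, Itgb1, Itgb2 and Cxcr4 reached from -1.08 to 1.13 (adjusted p = 1). These unadjusted bounds give the differences that the data leave room for and do not show equal levels.

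Itgb2 (ENSMUSG00000000290.13, chromosome 10 from 77530252 to 77565708) encodes the beta chain of the leukocyte integrins, and Itgal (ENSMUSG00000030830.18, chromosome 7 from 127296260 to 127335138) the alpha chain that forms LFA-1 with it. Itgb2 had 41.6, 88.5, 76.0, 48.1 and 44.99 CPM across Lepr- HSC, and 42.9, 35.6, 80.3, 43.3 and 63.1 CPM across Lepr+ HSC. In Lepr- MPP it had 35.5, 29.8, 51.3, 42.3 and 28.4 CPM, and in Lepr+ MPP 36.8, 43.8, 47.3, 47.8 and 17.8 CPM. Lepr- HSC were higher than Lepr- MPP in 5 of 5 pairs, but the ranges overlapped (log2 0.68 ± 0.30, edgeR adjusted p = 0.349).

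Itgal had the opposite slant. It had 7.19, 15.7, 12.05, 12.1 and 0.247 CPM across Lepr- HSC, and 9.22, 9.92, 21.2, 18.8 and 0.421 CPM across Lepr+ HSC. It had 50.2, 109.4, 57.2, 28.5 and 21.5 CPM across Lepr- MPP, and 25.4, 47.6, 24.997, 0.439 and 26.8 CPM across Lepr+ MPP. Every Lepr- MPP library lay above every Lepr- HSC library. Itgal, Robo4 and Selplg were the 3 of 9 members whose HSC ranges lay wholly below the MPP ranges there, and 3.43% of genes showed that. The difference of -2.50 ± 0.93 did not pass (edgeR adjusted p = 0.218, DESeq2 adjusted p = 0.0686). Without the 3 least alike libraries it was -2.50 with an edgeR adjusted p of 0.0376, where 4.28% of genes were called. Those 3 libraries are all Lepr+ and lie outside this comparison, which they enter only through the shared fit. Lepr- HSC replicate 5, with 0.247 CPM, stayed in.

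The 3 libraries near 0 held 3, 4 and 4 counts of Itgal, against 298 to 2886 counts in Lepr- MPP. They were replicate 5 of both HSC groups and replicate 4 of Lepr+ MPP, all among the shallow libraries. Other shallow libraries held more, with 141 counts in Lepr- HSC replicate 4 and 238 in Lepr+ MPP replicate 5, the shallowest. The part of depth in this was not tested. Per kb of exon, Itgal stood at 0.0711 ± 0.0418 of Itgb2 in Lepr- HSC and at 0.111 ± 0.0717 in Lepr+ HSC. The ratio was 0.709 ± 0.574 in Lepr- MPP and 0.355 ± 0.263 in Lepr+ MPP. In Lepr- MPP the ratio of every library (0.313 to 1.71) exceeded that of every Lepr- HSC library (0.00255 to 0.117). For Itga4 over Itgb1 the ratio stayed between 0.0278 and 0.137 in all 20 libraries, and for Itga6 over Itgb1 between 0.115 and 0.295.

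**Figure D3:**
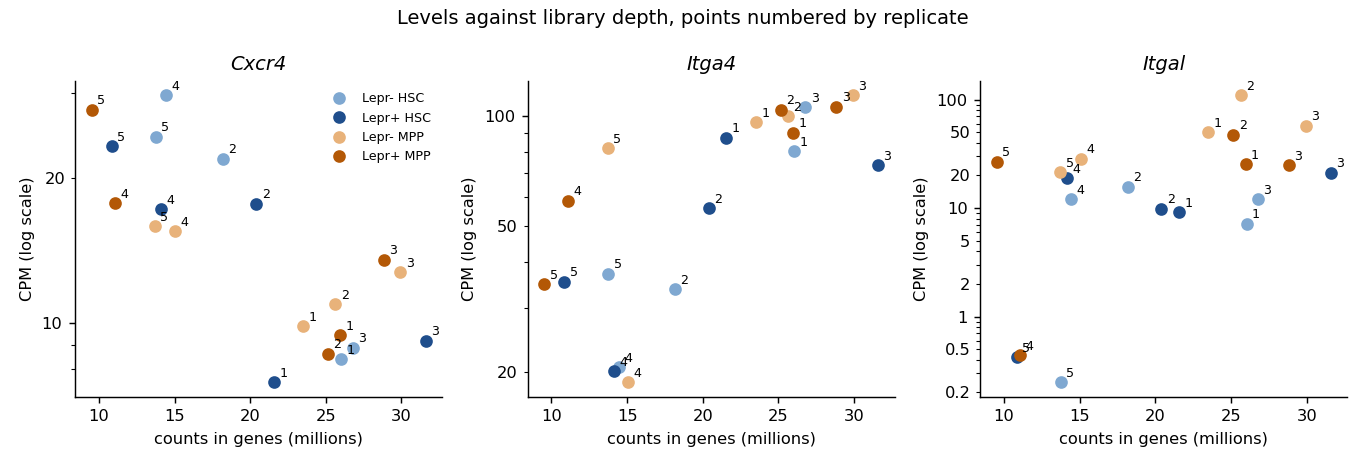
CPM (log scale) of Cxcr4, Itga4 and Itgal against counts in genes, 1 point per library, coloured by group and numbered by replicate. Cxcr4 lies at 15.5 CPM or more in replicates 4 and 5, Itga4 is lowest in replicate 4 except in Lepr+ MPP, and 3 shallow libraries hold 3 or 4 counts of Itgal.

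Of 17 tested integrin chains outside the members (21 listed), 2 rose and 2 fell in Lepr- HSC against Lepr- MPP with edgeR. Itga2b and Itgb3, the chains of the platelet fibrinogen receptor, were the 2 that rose. Itga2b had 705.0 ± 249.9 CPM in Lepr- HSC, 272.2 ± 127.4 in Lepr+ HSC, 90.4 ± 22.7 in Lepr- MPP and 87.3 ± 46.3 in Lepr+ MPP (log2 2.96, edgeR adjusted p = 0.000176 for Lepr- HSC minus Lepr- MPP). Among cells without the receptor, Itgb3 averaged 145.5 ± 60.5 CPM for HSC and 21.8 ± 12.5 CPM for MPP (log2 2.74, edgeR adjusted p = 0.00112). Itga2b was lower in Lepr+ than in Lepr- HSC in 5 of 5 pairs (log2 -1.37), which passed with the block and with DESeq2 (adjusted p = 0.0113 and 0.0312) and not with edgeR without the block (0.191). Among Lepr+ cells edgeR without the block called 0 of the 17 chains between HSC and MPP. Itga2b was higher in HSC there with the block (log2 1.61, adjusted p = 0.00374, and 0.0551 without), edgeR without the 3 least alike libraries called it too, and DESeq2 called Itga2b and Itgb3 (adjusted p = 0.00295 and 0.0146). Between Lepr+ and Lepr- MPP edgeR called 0 of the 17 chains, with or without the block. DESeq2 tested 19 there and called Itga8 and Itga1 as higher in Lepr+ cells. It also called Itga8 as higher in Lepr- HSC than in Lepr- MPP, and in the difference of the Lepr differences.

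Itgb7, partner of Itga4 in a gut-homing integrin, and Itgb5, a vitronectin receptor chain, were the 2 that fell. Itgb7 averaged 16.1 ± 4.46 CPM in HSC against 68.1 ± 22.7 CPM in MPP (edgeR adjusted p = 0.00587), and Itgb5 had 1.83 ± 2.18 and 48.8 ± 21.8 CPM (edgeR adjusted p = 0.0176). Of 12 tested megakaryocyte and platelet markers (14 listed, Itga2b and Itgb3 among them) 7 rose in this comparison. Their summed level was 2916 to 6067 CPM in Lepr- HSC, 1555 to 3343 in Lepr+ HSC, 690.2 to 1049 in Lepr- MPP and 709.3 to 1274 in Lepr+ MPP. Pf4 and Gp5 rose with Itga2b, and Gp6 was at 0 in every Lepr- library. The part of platelet or megakaryocyte RNA in the integrin levels was not tested.

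Of 36 tested genes of integrin activation (39 listed), 3 rose and 3 fell in Lepr- HSC against Lepr- MPP, with a list median of 0.02 beside 0.01 over all genes. Rap1b, the GTPase that turns platelet and leukocyte integrins on, averaged 1594 ± 491.8 CPM in the HSC and 330.4 ± 99.99 CPM in the MPP (log2 2.27, edgeR adjusted p = 0.000233). Rasgrp2, its exchange factor, had 152.6 ± 33.3 and 91.7 ± 4.004 CPM (log2 0.73, edgeR adjusted p = 0.0150). Lims1, an adaptor at integrin tails, also rose. Parvg, a parvin of blood cells, fell (190.0 ± 44.1 and 384.7 ± 47.3 CPM, log2 -1.02, edgeR adjusted p = 0.0106), as did the GTPase Rac2 and the RAP effector Rassf5. With the block 4 rose and 5 fell, Fermt3 joining the genes that rose, and Cyth1 and Rhoh those that fell.

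Between Lepr+ and Lepr- HSC, edgeR without the block called 0 genes of this list. With the block, Rap1b (721.4 ± 265.9 CPM in Lepr+ HSC, log2 -1.17, adjusted p = 0.00312, and 0.163 without the block) and Rasgrp2 (96.2 ± 14.7 CPM, log2 -0.66, adjusted p = 0.0141, and 0.130 without) fell. DESeq2, fitted without the block, called the same 2 genes (adjusted p = 0.0256 for Rap1b and 0.00390 for Rasgrp2). Among Lepr+ cells edgeR without the block called 0 of the list between HSC and MPP, while with the block Rap1b was higher and Parvg lower in HSC. DESeq2 called those 2 as well (adjusted p = 0.0360 and 0.0183). Between Lepr+ and Lepr- MPP edgeR called 0 of the list, with or without the block. DESeq2 called Parva there as higher in Lepr+ cells (3.16 ± 2.90 CPM against 0, adjusted p = 0.000114). Megakaryocyte and platelet marker sums were also lower in Lepr+ than in Lepr- HSC in 5 of 5 pairs.

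Selplg (ENSMUSG00000048163.13, chromosome 5 from 113818536 to 113832644) encodes PSGL-1, the main protein on blood cells that selectins bind. It had 185.1, 148.7, 166.6, 138.7 and 138.8 CPM across Lepr- HSC, and 335.5, 486.4, 393.1, 267.3 and 308.0 CPM across Lepr- MPP. All 5 HSC libraries lay below all 5 MPP libraries, and the lowest MPP library was replicate 4. HSC were 2.30-fold lower (log2 -1.20 ± 0.22, edgeR adjusted p = 0.00332, DESeq2 adjusted p = 1.1e-05, lower in 5 of 5 pairs). With the June libraries alone (replicates 1, 3 and 5) the difference was -1.09 with an edgeR adjusted p of 0.104, and with the July libraries alone (replicates 2 and 4) it was -1.42 with an adjusted p of 0.826.

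Lepr+ HSC had 216.0, 178.0, 237.8, 151.8 and 141.3 CPM of Selplg and Lepr+ MPP had 324.5, 464.1, 366.3, 197.5 and 267.2 CPM. These ranges overlapped through Lepr+ MPP replicate 4 alone. The difference of -0.81 ± 0.22 did not pass with edgeR (adjusted p = 0.127), passed with the block (-0.78, adjusted p = 0.00908) and with DESeq2 (adjusted p = 0.0206), and passed without Lepr+ MPP replicate 4 (-0.94, edgeR adjusted p = 0.0497). In HSC Selplg was higher in the Lepr+ library of 5 of 5 pairs (0.25 ± 0.22, edgeR adjusted p = 1.00), and in MPP it was lower in 5 of 5 (-0.14 ± 0.22, edgeR adjusted p = 1). Without the 3 least alike libraries the MPP difference turned to 0.11. The test of the difference between these differences gave 0.39 ± 0.31 with an edgeR adjusted p of 1.00.

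**Figure D4:**
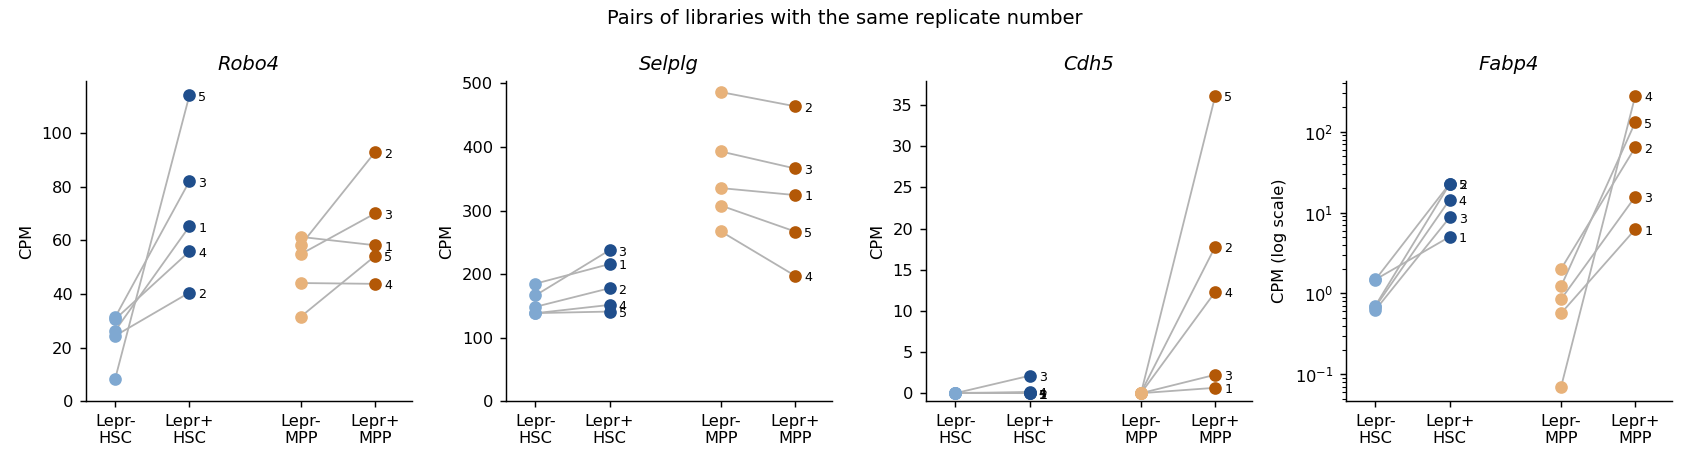
CPM of Robo4, Selplg and the endothelial genes Cdh5 (linear axes) and Fabp4 (log axis) in Lepr- and Lepr+ libraries, with lines joining libraries of the same replicate number, which labels the Lepr+ point. Selplg is higher at the Lepr+ end of all 5 lines in HSC and lower at it in all 5 in MPP, and Cdh5 is at 0 to 2.12 CPM in Lepr+ HSC, while Fabp4 is higher at the Lepr+ end of all 5 lines in HSC.

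Selectins bind PSGL-1 only when enzymes have built fucosylated sugars on it. Of 14 genes of that glycosylation, Fut7, the fucosyltransferase that leukocytes use for it, was the 1 that fell in Lepr- HSC against Lepr- MPP with edgeR and 0 rose. Mean Fut7 was 33.02 ± 6.98 CPM in Lepr- and 27.04 ± 11.5 CPM in Lepr+ HSC, against 94.9 ± 13.2 and 74.5 ± 17.2 CPM in the corresponding MPP. Its differences between HSC and MPP were -1.52 among Lepr- cells (edgeR adjusted p = 0.00138) and -1.46 among Lepr+ cells (edgeR adjusted p = 0.0114). In neither did an HSC library reach the lowest MPP library. With the block and with DESeq2, Tpst2, a sulfotransferase that acts on PSGL-1, was also higher in HSC among Lepr- cells (adjusted p = 0.000564 and 0.0247, and 0.0972 with edgeR without the block). C1galt1 was called higher there by edgeR without the 3 least alike libraries, which are all Lepr+ and outside that comparison. The list medians were 0.31 and 0.19, beside 0.01 and -0.02 over all genes.

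Of 34 other homing and adhesion receptors, 1 rose and 2 fell in Lepr- HSC against Lepr- MPP, with a list median of -0.51. Cd34, a sialomucin that can serve as a selectin ligand and is low on mouse long-term HSC, averaged 192.0 ± 12.7 CPM in the HSC without and 215.4 ± 31.5 CPM in those with the leptin receptor, and 1146 ± 203.8 and 858.5 ± 174.8 CPM in the MPP. It fell in both comparisons of HSC with MPP (log2 -2.58 and -1.99, edgeR adjusted p = 1.02e-07 and 6.64e-06). P2ry14, a receptor for UDP-glucose, fell among Lepr- cells (edgeR adjusted p = 0.0096), where the tetraspanin Cd9 rose (586.9 ± 292.5 and 134.5 ± 61.9 CPM, edgeR adjusted p = 0.0169). With the block 2 rose and 5 fell among Lepr- cells, Tie1 joining Cd9, and Kit, Alcam and S1pr1 joining the 2 that fell. By Lepr status 0 of the 34 passed in HSC and 0 in MPP.

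**Figure D5:**
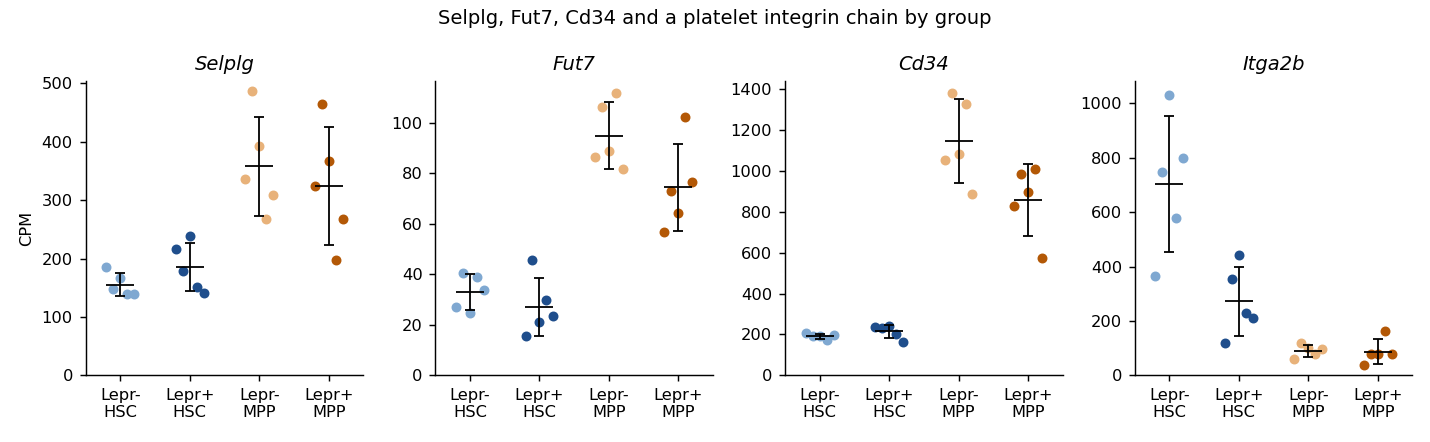
CPM (linear axes from 0) of Selplg, Fut7, Cd34 and Itga2b, 1 point per library in replicate order 1 to 5 within a group, with means and SD over 5 libraries. Fut7 and Cd34 in both HSC groups lie under every MPP library, whereas Itga2b is highest in Lepr- HSC (705.0 CPM on average).

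Cd44 (ENSMUSG00000005087.17, chromosome 2 from 102811141 to 102901665) encodes a receptor for the matrix sugar hyaluronan. It had 99.8, 180.5, 145.8, 166.0 and 131.4 CPM across Lepr- HSC, and 96.9, 179.8, 108.8, 191.4 and 57.7 CPM across Lepr+ HSC. In Lepr- MPP it had 179.4, 207.1, 218.3, 281.1 and 213.2 CPM and in Lepr+ MPP 143.7, 168.9, 164.6, 218.5 and 233.7 CPM. HSC were lower than MPP in 5 of 5 pairs among Lepr- cells and in 4 of 5 among Lepr+ cells, though the ranges overlapped. The differences were -0.60 ± 0.26 (edgeR adjusted p = 0.328) and -0.55 ± 0.26 (edgeR adjusted p = 0.634).

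Of 12 tested partners of CD44 and ROBO receptors (14 listed), edgeR without the block called 0 in the 4 comparisons. Cd74, an invariant chain that also works with CD44 at the surface, rose with the block in Lepr+ HSC (39.3 ± 20.1 to 116.1 ± 34.2 CPM, log2 1.69, adjusted p = 0.00380, and 0.246 without the block). It also rose with the block in Lepr+ MPP (44.6 ± 25.5 to 143.5 ± 65.9 CPM, log2 1.84, adjusted p = 0.00903, and 0.180 without). DESeq2 called Cd74 in MPP (adjusted p = 0.0226) and not in HSC (0.0584), and it called Ank3 as higher in Lepr- HSC than in Lepr- MPP. Msn, which links CD44 tails to the actin skeleton, fell with the block in Lepr- HSC against Lepr- MPP (405.1 ± 96.9 and 578.2 ± 114.1 CPM, adjusted p = 0.0305, and 0.367 without).

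Robo4 (ENSMUSG00000032125.20) lies on chromosome 9 from 37401897 to 37415115. It is the member with the widest gap between Lepr+ and Lepr- HSC, so the stretch around its start in RefSeq, chr9:37401722-37402021 on the plus strand of GRCm38.p6, is shown. It runs from 250 bases before the start to 50 after it, and capitals mark the letters GGAA or their reverse complement TTCC, the core bound by ETS factors, many of which act in blood and vessels.

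Robo4: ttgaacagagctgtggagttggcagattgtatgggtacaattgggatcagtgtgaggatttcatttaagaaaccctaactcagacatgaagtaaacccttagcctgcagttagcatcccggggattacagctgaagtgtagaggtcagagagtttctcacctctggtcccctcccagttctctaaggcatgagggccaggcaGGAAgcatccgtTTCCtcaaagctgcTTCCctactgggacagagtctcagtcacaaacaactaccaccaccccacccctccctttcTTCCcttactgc

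The window holds 4 such matches, and 50.3% of its bases are G or C. Of 32851 RefSeq windows of the same length, 96.0% hold at least 1 match, so a match is common. Such windows were found for 5 of the 9 members.

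Robo4 had 26.4, 24.5, 31.4, 30.7 and 8.49 CPM across Lepr- HSC, and 65.3, 40.6, 82.1, 55.9 and 114.2 CPM across Lepr+ HSC. The highest Lepr- library lay below the lowest Lepr+ library, a gap in this direction that 0.999% of genes showed. The widest pair, replicate 5, joined the lowest and the highest library. The fitted difference was 2.94-fold (log2 1.56 ± 0.33, 95% interval 0.87 to 2.25, higher in 5 of 5 pairs), with an edgeR adjusted p of 0.0695. With the block it was 1.62 with an adjusted p of 0.0394, and DESeq2 gave 1.57 with an adjusted p of 0.00113.

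The call of Robo4 with the block was lost without any 1 of the 5 replicate numbers, at differences from 1.10 to 1.85 and adjusted p from 0.0633 to 0.223. It held with the block without the 3 least alike libraries (1.19, adjusted p = 0.0414). The difference was 1.99 in June libraries alone and 0.85 in July libraries alone (edgeR adjusted p = 0.554 and 1).

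In MPP, Robo4 had 61.3, 58.3, 54.9, 44.1 and 31.6 CPM without the receptor and 58.2, 93.0, 70.1, 43.8 and 54.2 CPM with it. These ranges overlapped, and the difference was 0.35 ± 0.32 (edgeR adjusted p = 1, higher in 3 of 5 pairs). Lepr+ HSC (71.6 ± 28.2 CPM) and Lepr+ MPP (63.9 ± 18.8 CPM) also overlapped, with a difference of 0.16 ± 0.32 (edgeR adjusted p = 0.997) whose sign turned without Lepr+ HSC replicate 5 (-0.067). Lepr- HSC (24.3 ± 9.30 CPM) stood below Lepr- MPP (50.1 ± 12.2 CPM) in every library, though the nearest values were 31.4 and 31.6 CPM. That difference of -1.04 ± 0.33 had an adjusted p of 0.114 with edgeR, 0.0773 with the block and 0.0392 with DESeq2. The Lepr difference in HSC exceeded that in MPP by 1.21 ± 0.46, with an edgeR adjusted p of 1.00, so a difference between the cell types was not shown.

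Robo4 is also a gene of blood vessels. The summed level of 17 other endothelial markers was 860.7 to 975.9 CPM in Lepr- HSC and 1053 to 1356 CPM in Lepr+ HSC, and 672.3 to 962.5 and 990.8 to 1626 CPM in Lepr- and Lepr+ MPP. Every Lepr+ HSC library lay above every Lepr- HSC library in this sum, as for Robo4. Tie1 (203.9 ± 31.3 CPM without and 260.6 ± 30.5 CPM with the leptin receptor) and Esam (220.0 ± 85.9 and 280.6 ± 82.8 CPM) were large parts of it. The endothelial gene Cdh5 was at 0 to 0.059 CPM in Lepr- HSC and at 0 to 2.12 CPM in Lepr+ HSC. In Lepr+ MPP, where Cdh5 was highest, Tie1 averaged 175.9 ± 52.8 CPM. The part of endothelial RNA in this sum was not tested.

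Single markers of the list differed in how they moved. Fabp4, a fatty acid binding protein of capillaries and fat, had 1.49, 0.708, 0.626, 0.685 and 1.48 CPM across Lepr- HSC and 5.02, 22.6, 8.73, 14.5 and 22.8 CPM across Lepr+ HSC. These ranges did not overlap, and DESeq2 called the difference (log2 3.88, adjusted p = 0.000257, against 0.0877 with edgeR and 0.0555 with the block). Mmrn2 was at 0 in all 5 Lepr- HSC libraries and at 0 to 5.63 CPM in Lepr+ HSC, with 194 of its counts in replicate 3, and DESeq2 called it as well (adjusted p = 0.0442, against 0.360 with edgeR). Plvap, a protein of vessel diaphragms, was higher in 5 of 5 pairs (3.80 ± 3.84 and 11.1 ± 10.6 CPM, edgeR adjusted p = 0.992). Cdh5, the cadherin of endothelial junctions, was at 0 counts in Lepr+ HSC replicates 1, 2 and 5, which had 65.3, 40.6 and 114.2 CPM of Robo4. Its highest value in that group was 2.12 CPM, in replicate 3.

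Sox17 was at 0 in all Lepr- libraries and at most 0.105 CPM in Lepr+ HSC. In Lepr+ MPP, Cdh5 averaged 13.8 ± 14.3 CPM. Of the 17 tested endothelial markers (18 listed, Robo4 among them), edgeR without the block called 0 between Lepr+ and Lepr- HSC, where the list median was 1.00 with Robo4 included. With the block Robo4 was the 1 that rose, and DESeq2 called 3 as higher, Robo4, Mmrn2 and Fabp4. In MPP 3 rose with edgeR without the block (Cdh5, Sox18 and Fabp4), 1 with it (Fabp4) and 8 with DESeq2, and the list median was 2.95. The part of endothelial RNA in the Robo4 difference was not tested. Stromal marker sums were 85.5 to 320.3 CPM in Lepr- HSC, 125.9 to 358.8 in Lepr+ HSC, 162.2 to 241.1 in Lepr- MPP and 330.6 to 4631 in Lepr+ MPP, with Ebf3 and Fbln5 at 0 in both Lepr- groups. Of 20 stromal markers edgeR called 0 by Lepr status in HSC and 8 in MPP, all higher in Lepr+ cells (list medians 1.38 and 7.34). With the block these were 0 and 3. DESeq2 tested 19 and called 4 in HSC (Fbln5, Adipoq, Col3a1 and Lepr) and 16 in MPP, all higher in Lepr+ cells.

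Of 15 tested ligands of the 9 receptors (17 listed), edgeR called 0 between Lepr+ and Lepr- HSC, with a list median of 0.66, and DESeq2 called 1, Sele, which was at 0 in all 5 Lepr- libraries and at 0 to 6.88 CPM in the Lepr+ ones (adjusted p = 0.0256). Cxcl12 was the 1 that rose with edgeR in Lepr+ against Lepr- MPP (8.64, 342.5, 393.7, 598.4 and 311.2 CPM against 0.227 to 2.89 CPM, log2 8.19, edgeR adjusted p = 0.0384), where the list median was 2.09. DESeq2 called 5 there as higher, Cxcl12, Lamb1, Fn1, Vcam1 and Spp1. Without the 3 least alike libraries 0 genes of any kind were called in that comparison. Spp1, osteopontin, which binds integrins and CD44, fell in Lepr+ HSC against Lepr+ MPP (5.70 ± 2.31 and 37.6 ± 38.8 CPM, edgeR adjusted p = 0.0446, and 0.0654 with the block). Stromal marker sums were highest in Lepr+ MPP, and their part in the ligand levels was not tested.

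Compared per kb of exon, the order of mean level over 20 libraries was Itgb1 (64.3 CPM per kb), Selplg (59.8), Cd44 (24.99), Itgb2 (15.5), Itga6 (12.5), Robo4 (9.89), Cxcr4 (8.56), Itga4 (4.85) and Itgal (3.80). Neighbours in this order often changed places. Itgb1 exceeded Selplg in 10 of 20 libraries and Cxcr4 exceeded Itga4 in 10, while Selplg exceeded Cd44 in all 20. With the length of the longest coding transcript, Selplg came first (137.8 CPM per kb) and exceeded Itgb1 in 19 of 20 libraries, and Itga6 (26.1) stood above Itgb2.

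Likeness was measured over 20 libraries as the root mean square difference in mean-centred log2 CPM, where 0 means the same profile, among 9200 protein-coding genes with a mean of at least 10 CPM. Selplg had the closest partners of the 9, Arhgdib and Eef2k (both 0.19, against a median of 0.81 over all genes compared). Cxcr4 was most like Psmb6 (0.28) and Osgep (0.29), Itga6 like Emilin1 (0.22) and Atp2a3 (0.23), and Itgb1 like Pdia4 and Gcn1l1 (both 0.23). Itgb2 was most like Atl2 (0.30) and Ralb (0.31), Itga4 like Gtf2f1 (0.32) and Lpin2 (0.34), and Cd44 like Impdh1 (0.32) and Tap2 (0.33). Robo4 was most like Ift46 (0.42) and Rab3il1 (0.45). For Itgal the nearest were Armc9 at 1.20 and Slco3a1 at 1.21, against a median of 2.24 over all genes compared. The measure grows with a gene's own spread, which was 2.22 for Itgal and from 0.48 (Itga6) to 0.86 (Itga4) for the other members. On the reading of the design text used here, libraries with the same replicate number share mice. Replicates 1 and 3 were also deep and replicates 4 and 5 shallow. Both can enter every one of these values.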

How the data were processed

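RNA of 20 sorted samples was made into cDNA and libraries that keep no strand, per the labels, and sequenced as read pairs. The authors deposited raw counts per gene, 1 file per library. Per the submitters' processing notes, the tools were STAR 2.7.1a, cutadapt 2.1, HTSeq 0.11.2, FastQC 0.11.8 and DESeq2, with build GRCm38. The counting mode is not given in the sources used here. The 5 closing lines that name no gene were left out. Genes took 61.3% to 78.6% of each file's total. Of 55573 identifiers, 55480 matched GENCODE M21.

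Groups were compared with edgeR 4.0.16 (R 4.3.3) quasi-likelihood tests on all 20 libraries. The fit used TMM, filterByExpr (minimum count 10, minimum total 15), robust dispersion and group as the only term. P-values are two-sided, adjusted by Benjamini-Hochberg over 16509 genes, with a threshold of 0.05. The biological coefficient of variation was 0.747. Intervals cover 95% and are unadjusted. Depth bounds the precision of low values: 3 counts were 0.247 CPM in 1 library. Each p-value reflects only how these pooled samples vary. The procedure was tested on simulated data.

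Alternatives were DESeq2 1.42.0 and its size factors, no filter, only the groups compared, the replicate number as a block, each month alone, and single libraries or the 3 least alike left out. Chosen after seeing the data were the block combined with left-out libraries and the longest transcript. The design text gives 2 mice for each replicate, and on that reading numbers pair libraries. In deviations from group means, same-number pairs correlated at a median of 0.264 (-0.0647 to 0.562) and others at -0.0857. June and July come from dates in the deposited files' names, and the labels do not say of what.

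The members, gene lists and tests were chosen with earlier results of these data known. Named genes were the 9 members, up to 4 genes of each pathway list by smallest p, and 2 genes most like each member. Other names come from marker lists or calls and were chosen after values were seen. No 2 libraries were identical. 1 gene of the list of other homing and adhesion receptors is not reported here, and the counts and median of that list leave it out.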

Additional observations from a re-analysis of the deposited data

Results flagged for a closer look

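Itgb1 in Lepr+ HSC was set apart by 1 library. Replicate 3 had 392.3 CPM, and its gap to the next library took up 0.741 of the range of the group, above the critical value of 0.71 for 5 samples. Among 36 combinations of gene and group tested, chance alone marks about 1 in 20.

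Selplg differed in the direction of its Lepr difference between the cell types. It was higher in Lepr+ HSC in 5 of 5 pairs and lower in Lepr+ MPP in 5 of 5 pairs, a difference of differences of 0.39 on the log2 scale. The test of that difference did not pass (edgeR adjusted p = 1.00, and 0.978 with the replicate block).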

How the results depend on the processing

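Of 522 repeated values, 496 kept their direction and side of the threshold, 18 newly passed, 2 no longer passed and 6 changed sign. The causes were not tested. With the replicate block, members called were 1 for Lepr in HSC (Robo4), 0 for Lepr in MPP, 1 for Lepr- HSC against Lepr- MPP and 1 for Lepr+ HSC against Lepr+ MPP (both Selplg), against 0, 0, 1 and 0 without it. DESeq2 gave 1, 0, 2 and 1. For Lepr- HSC against Lepr- MPP the count was 2 without the 3 least alike libraries (768 of 17935 genes called) and 0 in June or July alone. Those 3 libraries are all Lepr+ and outside that comparison. The block gave 4 without those 3 libraries, 2 without replicate 4 and 3 without replicate 5. Over all genes these settings called 1977 of 17935, 1120 of 17309 and 932 of 17041. For Lepr+ HSC against Lepr+ MPP the block gave 1 without those 3 libraries or without replicate 1, 2 or 4, and edgeR 0 to 1 without single libraries (1 without Lepr+ MPP replicate 4). Over all genes the block called 180 of 17935, 130 of 15546, 96 of 16352 and 194 of 17309 there, in that order. Without Lepr+ MPP replicate 4 edgeR called 71 of 17160. For Lepr in HSC the block without the 3 libraries gave 1, where 143 of 17935 genes were called.

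Genes called for Lepr in HSC (17) were 196 with DESeq2, 169 with the replicate block, 8 without the 3 least alike libraries and 0 with only the groups compared, in June or in July (731, 1031 and 426 at an unadjusted p under 0.05). Without single libraries they were 0 to 24, with 0 without Lepr- HSC replicate 2 or 3 or Lepr+ HSC replicate 5 (1043, 1027 and 1094 at that level), 3 without Lepr- HSC replicate 5 and 11 without Lepr- HSC replicate 4. For Lepr in MPP (33) they were 243, 17, 0 and 16 under the first 4 settings in that order and 0 in June and July (793 at an unadjusted p under 0.05 without the 3 libraries, 556 in June and 367 in July). They were 4 to 49 without single libraries, and 4 to 15 without each one except Lepr+ MPP replicate 1. For Lepr- HSC against Lepr- MPP (451) they were 879, 1238 and 768 under DESeq2, the block and without the 3 libraries, 81 in June, 0 in July (798 at an unadjusted p under 0.05) and 301 to 462 without single libraries. For Lepr+ HSC against Lepr+ MPP (77) they were 371, 293 and 4 under DESeq2, the block and only the groups compared, 0 in June and July (822 and 839 at that level), and 28 to 94 without single libraries (28 without Lepr+ MPP replicate 2, 32 and 36 without Lepr+ HSC replicates 2 and 4). The difference of differences gave 31 with DESeq2 and 0 with edgeR (529 at that level).

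The 6 changes of sign were Selplg between Lepr+ and Lepr- MPP (0.11 without the 3 libraries) and Robo4 between Lepr+ HSC and Lepr+ MPP. For Robo4 these were -0.28 without the 3 libraries, -0.51 in July, -0.27 and -0.14 with the block without the 3 libraries or replicate 5, and -0.067 without Lepr+ HSC replicate 5 (-0.067 to 0.34 without single libraries). Depth ran from 9532993 to 31589794 counts, and Itgal had 3 or 4 counts in 3 libraries. The shallowest library, Lepr+ MPP replicate 5, had 238 counts of Itgal, and the part of depth was not tested.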
